A study of Mus musculus with 60 samples.

Results

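The 57 genes described here encode homeodomain transcription factors outside the Hox clusters, and they were taken by name from the Nkx, Lhx, Isl, Lmx, Irx, Dlx, Msx, Otx, Emx, En, Gbx, Barhl, Barx, Alx, Pitx, Gsc, Gsx and Evx families. Each symbol was found once among the 21938 protein-coding genes of the mouse annotation. By family there were 12 NK genes, 12 LIM genes, 6 Irx genes, 6 Dlx and Msx genes, 7 genes of the paired class and 14 other genes of the ANTP class. None lay on the X chromosome.

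Homeodomain factors bind DNA through a conserved helical domain and set the identity of organs, body segments and neuronal classes in the embryo. In cells that do not use them, their genes are classical targets of Polycomb Repressive Complex 2 (PRC2), which trimethylates lysine 27 of histone H3 (H3K27me3), and the mark often spreads over the whole gene and the DNA around it. Progenitor cells of a given lineage therefore usually carry broad H3K27me3 over the homeobox genes of other lineages.

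The study asked how a change of an arginine in the N-terminal tail of H3 alters the marks on chromatin. C3H 10T1/2 cells, a clonal mouse line of mesenchymal progenitors, carried a lentiviral transgene for human H3 driven by the EF1 promoter and tagged with HA and FLAG, either the wild-type protein (H3WT) or a form with cysteine in place of the arginine at position 2, 8, 17 or 26, named H3R2C, H3R8C, H3R17C and H3R26C. Endogenous H3 was present in all 5 genotypes, H3WT included, and no other treatment separated the groups used here. CUT&RUN, in which an antibody guides a nuclease to chromatin, was done with anti-H3K27me3 and anti-HA in 3 labelled replicates per genotype. The study calls the replicates biological, and nothing in the labels says which were separate cultures, so p measures only the spread between these libraries. In each of the 10 groups 2 of the 3 peak lists held identical values and were counted as 1 library. One H3R17C list labelled anti-H3K27me3 carried the name of another mark and was left out. This left 2 independent anti-H3K27me3 libraries for H3WT, H3R2C, H3R8C and H3R26C, 1 for H3R17C, and 2 anti-HA libraries for each genotype. In the pairs of values below, the library of replicates 1 and 2 comes before that of replicate 3, and H3R17C is the list shared by replicates 2 and 3.

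The anti-H3K27me3 lists held 20077 to 24598 peaks and the anti-HA lists 15344 to 52083. A gene was counted as marked when a peak touched the 1 kb on either side of its start site, the start of its principal transcript. As a check of cell type, 0 of 12 mesenchymal marker genes and 0 of 6 housekeeping genes were marked with H3K27me3 in any of the 9 libraries, whereas 5 of 5 neural genes were marked in both H3WT libraries. A peak list shows nothing below its own threshold. The weakest listed peak, on the scaled unit explained next, ranged from 0.0612 to 0.135 among libraries and was 0.0979 and 0.135 in H3R2C, so a gene without a peak was under these levels and not necessarily free of the mark.

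The level at a start site is given as scaled signal, the summed signal of the peaks that touch it divided by the median over the 907 genes marked in all 8 libraries of H3WT, H3R2C, H3R8C and H3R26C. The 2 libraries of replicate 3 of H3R2C and H3R26C stood apart in this median, at 31550 and 28500 against 69600 to 103700 in the other 6, and their peaks covered 77.0 and 64.2 Mb against 82.7 to 130 Mb. Results without them are given with the omissions of single libraries. A value of 1 is therefore the level of the middle gene of that set. The whole of each peak enters the sum, so a longer peak gives a higher value, and values are compared between libraries for 1 gene at a time.

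Promoter sequences are shown for the genes that lead the lower calls and for those that carry the most mark, that is, those with the lowest adjusted p among lower genes in H3R2C and in H3R26C and those with the highest signal in H3WT. Dlx4, 1 of the 6 genes so chosen, had no entry. The sequences are RefSeq promoters on GRCm38.p6, written 5′ to 3′ in the direction of the gene from 250 bases before to 50 bases after the RefSeq start, in lower case with each CG dinucleotide in capitals. CG was searched as the letters CG, which read the same on both strands.
Nkx2-2 (chr2:147186353-147186652, minus strand): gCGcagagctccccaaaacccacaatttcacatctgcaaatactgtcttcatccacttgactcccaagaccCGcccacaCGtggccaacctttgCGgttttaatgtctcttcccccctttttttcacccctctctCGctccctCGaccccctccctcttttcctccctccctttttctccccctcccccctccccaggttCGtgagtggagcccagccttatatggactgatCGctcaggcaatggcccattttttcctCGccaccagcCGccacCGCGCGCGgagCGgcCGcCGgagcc
Nkx2-1 (chr12:56536859-56537158, minus strand): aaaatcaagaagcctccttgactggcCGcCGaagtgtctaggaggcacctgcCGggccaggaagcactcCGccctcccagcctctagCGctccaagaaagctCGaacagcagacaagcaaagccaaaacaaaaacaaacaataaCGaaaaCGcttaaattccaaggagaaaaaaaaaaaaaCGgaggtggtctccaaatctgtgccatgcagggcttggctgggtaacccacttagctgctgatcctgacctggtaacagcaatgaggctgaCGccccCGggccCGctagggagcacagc
Pitx3 (chr19:46148276-46148575, minus strand): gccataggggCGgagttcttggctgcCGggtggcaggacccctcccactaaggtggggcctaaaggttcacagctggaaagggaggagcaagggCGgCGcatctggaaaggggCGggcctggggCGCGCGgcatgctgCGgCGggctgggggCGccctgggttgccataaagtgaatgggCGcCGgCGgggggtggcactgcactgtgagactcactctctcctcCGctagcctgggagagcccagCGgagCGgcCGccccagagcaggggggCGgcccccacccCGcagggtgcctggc
Nkx2-3 (chr19:43612075-43612374, plus strand): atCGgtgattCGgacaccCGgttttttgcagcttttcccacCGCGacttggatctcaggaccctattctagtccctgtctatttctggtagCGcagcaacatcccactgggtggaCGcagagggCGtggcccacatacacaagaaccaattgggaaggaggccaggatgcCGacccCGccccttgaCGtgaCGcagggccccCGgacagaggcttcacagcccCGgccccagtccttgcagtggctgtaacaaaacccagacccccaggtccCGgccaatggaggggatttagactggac
Lhx1 (chr11:84525485-84525784, minus strand): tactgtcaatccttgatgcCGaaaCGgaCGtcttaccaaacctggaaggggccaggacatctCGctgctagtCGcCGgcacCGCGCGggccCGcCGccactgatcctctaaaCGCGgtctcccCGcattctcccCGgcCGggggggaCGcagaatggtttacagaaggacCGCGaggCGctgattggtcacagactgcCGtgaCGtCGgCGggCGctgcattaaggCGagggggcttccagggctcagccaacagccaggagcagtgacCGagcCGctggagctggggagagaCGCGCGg
The promoter of Nkx2-2 held 17 CG, that of Nkx2-1 12, that of Pitx3 20, that of Nkx2-3 15 and that of Lhx1 31. Among the 32851 promoters of the table, 31.4%, 39.6%, 26.5%, 34.6% and 10.6% held as many or more, in the same order, and the median promoter held 7. Of the 57 genes 41 had an entry, and in 39 of them it lay within 1 kb of the start site used here. The median over these 39 was 23 CG, with a range of 4 to 50. It was 20 for 12 genes that lost their start-site peak in H3R2C, 21.5 for 10 genes that kept it in both H3R2C libraries and 25 for 11 genes never marked. For 3 genes that kept the peak in 1 H3R2C library it was 28. These medians were not tested against each other.

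In H3WT 36 of the 57 genes were marked in both libraries, where 8.89% of all protein-coding genes were. Marked in both libraries were 9 of 12 NK genes, 8 of 12 LIM genes, 11 of 14 other ANTP genes and 5 of 7 paired-class genes, but only 2 of 6 Irx genes and 1 of 6 Dlx and Msx genes. Per library 37 and 39 of the 57 were marked, and 4 genes were marked in 1 of the 2. Of the 57 gene bodies 16 lay wholly under peaks in both H3WT libraries, those of Nkx2-1, Nkx2-3, Nkx2-5, Nkx2-6, Nkx6-1, Lhx1, Irx4, Irx6, Dlx4, Otx2, En2, Gbx2, Barhl2, Pitx1, Gsx1 and Evx1.

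By the mean of both H3WT libraries, the highest start-site level belonged to Nkx2-3, a regulator of spleen and gut, at 9.96 and 10.0 scaled signal in H3WT, under peaks of 36.1 and 48.5 kb (chr19:43589251-43625350 and chr19:43578501-43627050). It was followed by Lhx1, a regulator of head and kidney formation, at 5.69 and 4.94 in H3WT. Lhx4, of the pituitary, had 5.26 and 5.11, Barx2, of the same class as Barx1, had 5.63 and 4.48, and Otx2, of the forebrain, had 5.36 and 4.49. The ranges of the last 4 genes overlapped, and Nkx2-3 lay above all of them in both libraries. In the other genotypes Barx2 had 3.02 and 3.13 in H3R2C, 5.58 and 4.27 in H3R8C, 5.46 in H3R17C, and 4.09 and 4.84 in H3R26C. Its H3R2C values were the lowest, and the log2 change of -0.67 ± 0.24 did not pass (limma adjusted p = 0.0843).

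The number of marked genes was lower in H3R2C than in every other genotype. In H3R2C 21 and 18 of the 57 genes were marked, against 37 and 39 in H3WT, 39 and 37 in H3R8C, 39 and 32 in H3R26C, and 33 in the single H3R17C library. Both H3R2C libraries thus fell below all 7 others. The share of all protein-coding genes marked per library was 10.1% and 7.59% in H3R2C and 10.0% and 10.7% in H3WT, so the library of H3R2C replicates 1 and 2 marked as large a share of the genome's genes as H3WT did and fewer of these 57. Marked in every library of a genotype were 17 of the 57 genes in H3R2C against 6.93% of all genes, 37 in H3R8C against 9.69%, 33 in H3R17C against 8.86% and 32 in H3R26C against 8.38%.

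**Figure D1:**
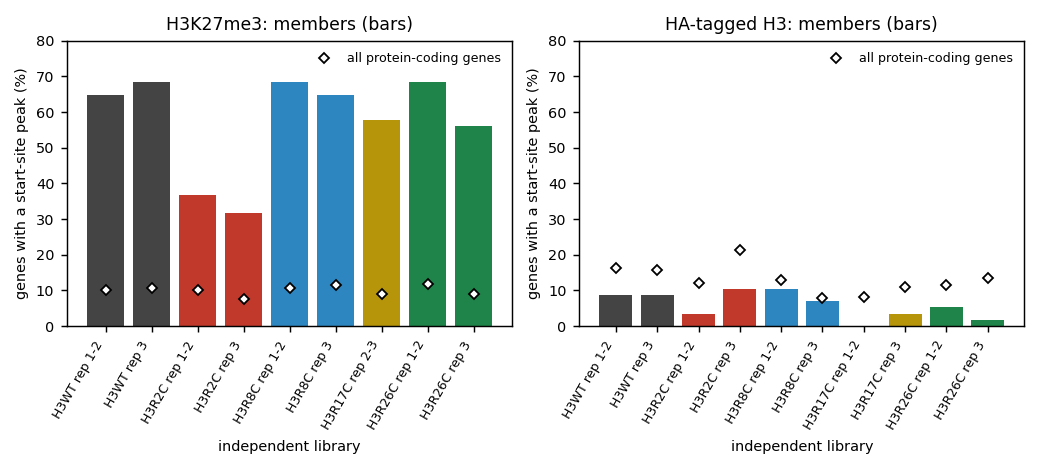
Percentage of the 57 homeobox genes (bars) and of all protein-coding genes (diamonds) with a peak within 1 kb of the start site in each independent library, for anti-H3K27me3 (left) and anti-HA (right). The H3R2C bars, at 36.8% and 31.6%, lie below the other 7 anti-H3K27me3 libraries, of which the lowest is at 56.1%, while the diamonds stay between 7.59% and 11.8%.

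By calls, 15 of the 36 genes marked in both H3WT libraries were marked in neither H3R2C library, which is 41.7%. The share over all genes was 25.9%, and 23.6% over the autosomes, where all 57 genes lie. In H3R26C 1 of the 36, Dlx4, was lost, against 9.23% of all genes. H3R8C lost 1 as well, Emx2, against 4.41%. No gene of the 57 was gained in the 2 libraries of H3R2C, H3R26C or H3R8C where H3WT had none, against 1.03%, 0.874% and 0.812% of the genes unmarked in H3WT.

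The 15 genes lost in H3R2C were Nkx1-2, Nkx2-2, Nkx2-4, Nkx2-5, Nkx2-9, Nkx6-1, Lhx8, Isl1, Lmx1a, Irx4, Irx6, En2, Barhl2, Alx1 and Gsx1. NK genes made up 6 of them, and the 2 Irx genes that were marked in both H3WT libraries were lost. A further 17 genes kept their peak in both H3R2C libraries and 4 (Lhx3, Otx2, Barx1 and Pitx3) in 1. In H3WT the lost genes had a median mean level of 1.28, with a range of 0.125 to 3.35, and the kept genes 3.92, with a range of 0.116 to 9.99. The peaks that touched the 1 kb on either side of the start were together 11.5 kb long in H3WT at the median lost gene and 22.1 kb at the median kept gene. The levels of the lost genes lay within the range of the kept genes, but the kept median of 3.92 was above the highest lost gene, at 3.35. This is a description with no test, because the genes were sorted by the H3R2C calls.

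Of the 15 lost genes 14 kept a peak in both H3R26C libraries, 14 in both H3R8C libraries and 12 in the H3R17C library. In 7 of the 15 a peak of at least 1 H3R2C library lay within 5 kb of the start. In 8 of the 15 no part of the gene body lay under a peak in either H3R2C library, but the body of Nkx2-4 was bare in both H3WT libraries too. The same counts over all genes lost in H3R2C are not given here, so none is read as particular to these 15. Counted within 5 kb instead of 1 kb, 8 of 39 genes were lost in H3R2C, which is 20.5%, near the 17.3% of all genes. These 8 were Nkx1-2, Nkx6-1, Lhx8, Isl1, Lmx1a, Irx4, Alx1 and Gsx1.

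**Figure D2:**
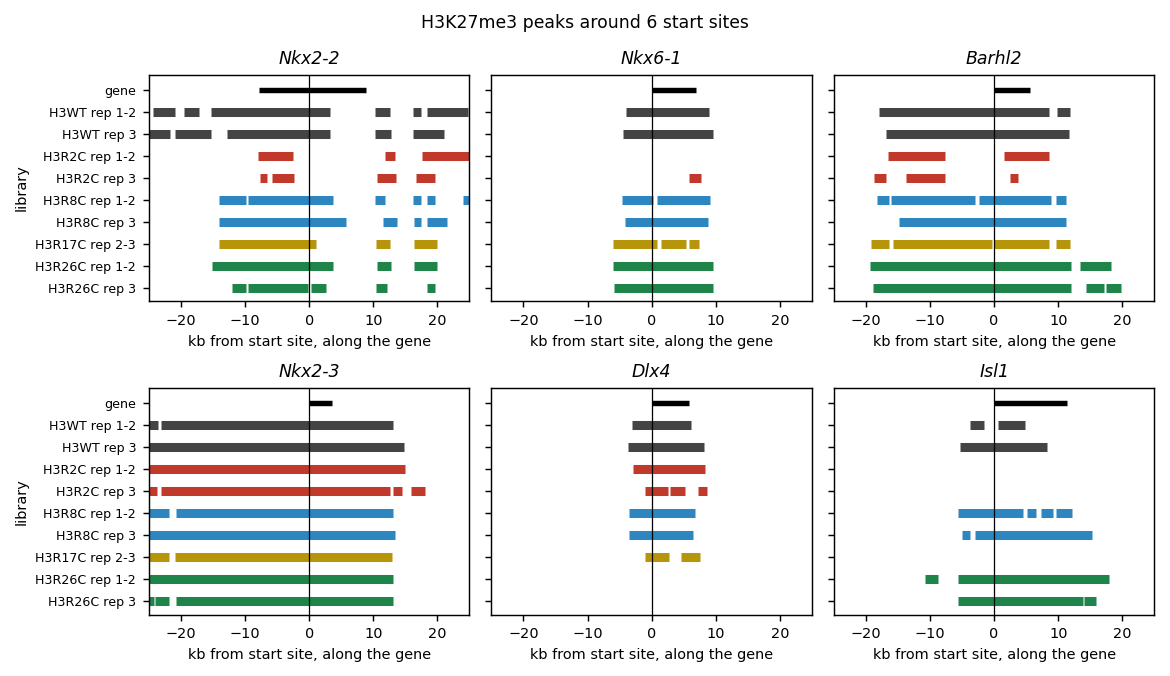
H3K27me3 peaks (coloured bars, 1 row per independent library) within 25 kb of the start sites of Nkx2-2, Nkx6-1, Barhl2, Nkx2-3, Dlx4 and Isl1, in kb along the direction of the gene, with the gene record as a black bar. These 6 genes were chosen after their values were seen. H3R2C peaks flank the start of Nkx2-2 and Barhl2 without covering it, Nkx2-3 is covered in all 9 libraries, Dlx4 has no bar in H3R26C, and Isl1 has none in H3R2C or H3R17C.

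For the levels, limma was fitted to log2(scaled signal + 0.25) over the 2800 genes marked in both libraries of at least 1 of the 4 genotypes, and p was adjusted over all of them (Benjamini-Hochberg). Of the 57 genes 39 passed this filter. A gene that passed only through other genotypes than a given one tends to be lower in that one. Only 17 of the 39 genes were marked in both H3R2C libraries. The filter thus tilts the H3R2C counts towards lower, against H3WT and against H3R26C alike. The counts describe the genes kept and are read beside the same count over all 2800. The 17 genes never marked and Irx1 were not fitted. Where no peak was listed the level entered as 0, and the size of the change then depends on the added 0.25 and sets no bound. A genotype without a peak in both libraries enters with equal values and adds no spread, so SE and p for such a gene are likely too small.

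In H3R2C against H3WT 19 of the 39 genes were lower, where 17.7% of all fitted genes were, and 2 were higher, where 11.0% were. The median log2 change was -1.39 over the 39 genes and -0.09 over all 2800. In H3R26C against H3WT 3 were lower and 1 higher, against 5.07% and 5.54% of all fitted genes, with a median log2 change of 0.27. In H3R8C 1 was lower and 0 higher, against 1.25% and 2.25%, with 3 lower and 0 higher at an unadjusted p under 0.05 by limma and a median of -0.09. These 3 comparisons share the H3WT libraries.

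**Figure D3:**
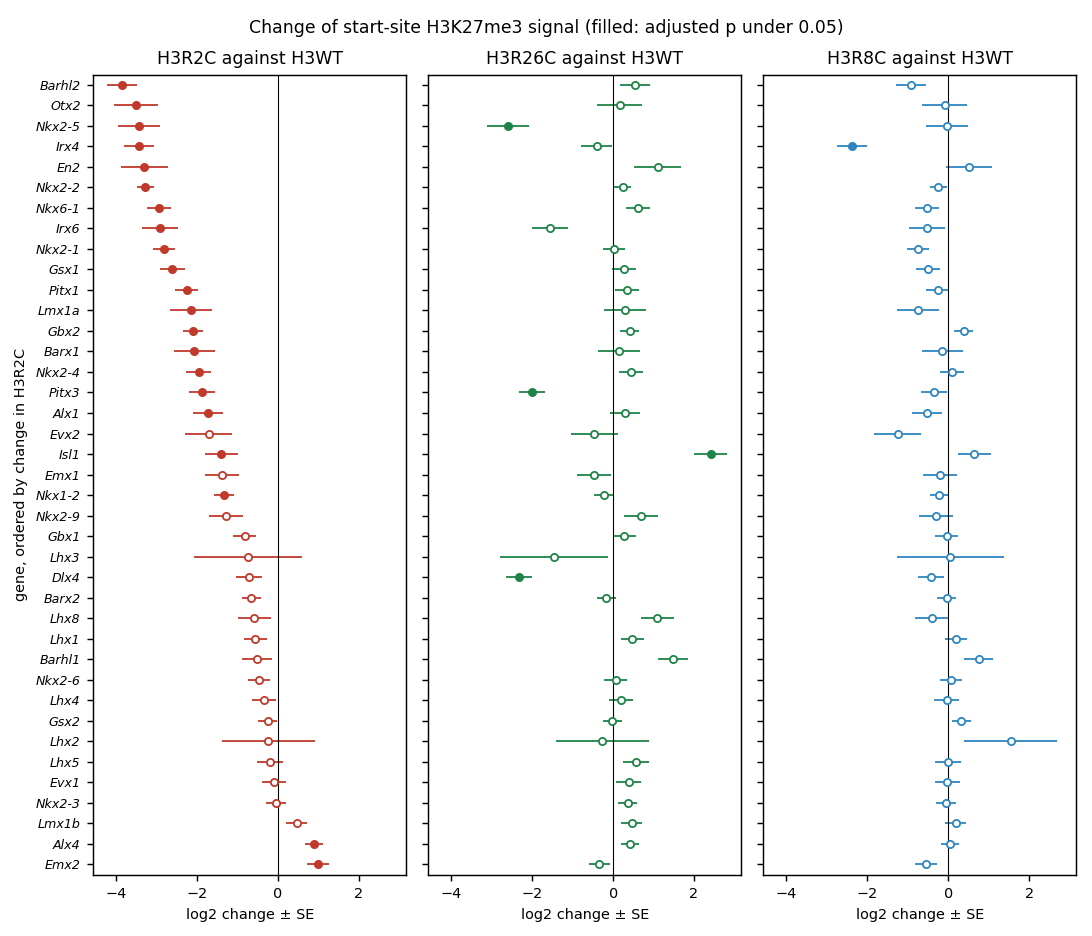
Change of the start-site signal against H3WT on the log2(scaled signal + 0.25) scale, with the limma SE, for the 39 fitted genes in H3R2C, H3R26C and H3R8C (2 libraries per genotype), ordered by the change in H3R2C. Filled points passed an adjusted p of 0.05. In H3R2C 19 filled points lie left of 0, from Barhl2 at -3.85 to Nkx1-2 at -1.34, and in H3R26C the filled points are Nkx2-5, Dlx4 and Pitx3 on the left and Isl1 on the right.

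Among the NK genes, Nkx2-2, which patterns the ventral neural tube and the pancreas, had 2.27 and 2.09 scaled signal in H3WT and no start-site peak in either H3R2C library. It had 1.78 and 1.82 in H3R8C, 2.14 in H3R17C, and 2.21 and 3.06 in H3R26C. Only H3R2C departed from the rest, and limma gave a log2 change of -3.28 ± 0.22 (SE, 2 libraries per genotype, adjusted p = 0.000661). The nearest H3R2C peaks lay 2.60 and 2.40 kb from the start whose sequence is given above. Of its gene body 31.4% and 27.2% stayed under peaks in H3R2C, against 66.1% in both H3WT libraries.

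Nkx2-1, a regulator of thyroid, lung and forebrain, kept a peak in H3R2C but a small one. Its signal was 3.36 and 3.31 in H3WT and 0.296 and 0.227 in H3R2C, with 1.51 and 2.33 in H3R8C, 2.49 in H3R17C, and 2.87 and 3.98 in H3R26C. The peaks over the start shrank from 24.1 and 24.8 kb in H3WT (chr12:56518301-56542350 and chr12:56518251-56543000) to 5.50 and 1.90 kb in H3R2C (chr12:56536501-56542000 and chr12:56536451-56538350). The change in H3R2C was -2.81 ± 0.27 on the log2 scale (SE, limma adjusted p = 0.00119), and H3R8C, below H3WT in both libraries, gave -0.75 ± 0.27 with an adjusted p of 0.326.

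Nkx6-1, which pancreatic beta cells and ventral neurons use, had 1.66 and 1.68 in H3WT, none in H3R2C, 1.05 and 1.14 in H3R8C, 0.849 in H3R17C, and 1.99 and 3.66 in H3R26C. Its body was covered over 100% in both H3WT libraries and over 0% and 14.8% in H3R2C. The H3R2C change was -2.94 ± 0.29 (SE, limma adjusted p = 0.00136). Nkx2-4, expressed in the hypothalamus, had 0.864 and 0.606 in H3WT, none in H3R2C, 0.999 and 0.616 in H3R8C, 0.685 in H3R17C, and 1.31 and 0.882 in H3R26C (log2 change -1.97 ± 0.30 in H3R2C, limma adjusted p = 0.00533). No H3WT peak covered its start or its body either. The nearest peaks lay 0.506 and 0.956 kb from the start in H3WT and 1.006 and 1.856 kb in H3R2C, just outside the window. This loss thus rests on where the window ends. The call was lost with the signal as deposited and with the signal shared out over 5 kb on either side. Nkx1-2, of the posterior neural plate, was low throughout, at 0.302 and 0.473 in H3WT, none in H3R2C, 0.301 and 0.287 in H3R8C, 0.219 in H3R17C, and 0.229 and 0.365 in H3R26C, and it changed by -1.34 ± 0.24 (limma adjusted p = 0.01). Nkx2-9 had 0.147 and 0.672 in H3WT, none in H3R2C, 0.186 and 0.309 in H3R8C, 0.308 in H3R17C, and 0.679 and 0.788 in H3R26C, and it did not pass in H3R2C (limma adjusted p = 0.0682).

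Nkx2-5, the cardiac homeobox gene, was low in both H3R2C and H3R26C. It had 2.43 and 2.46 in H3WT and 2.43 and 2.37 in H3R8C, with 2.06 in H3R17C. No peak touched its start in H3R2C, and in H3R26C the levels were 0.553 and none. The nearest peak in H3R26C replicate 3 lay 1.065 kb from the start, just outside the window, and those in H3R2C 2.515 and 3.065 kb from it. The log2 changes were -3.43 ± 0.52 in H3R2C (limma adjusted p = 0.00485) and -2.59 ± 0.52 in H3R26C (limma adjusted p = 0.0318). The 2 mutants differed in the gene body, of which 86.5% and 63.8% stayed under peaks in H3R26C and 6.10% and 0% in H3R2C. The 2 remaining marked NK genes did not pass. Nkx2-3 stood at 8.82 and 10.5 in H3R2C, 9.63 and 9.60 in H3R8C, 10.0 in H3R17C, and 11.9 and 14 in H3R26C (H3R2C -0.05 ± 0.24, limma adjusted p = 0.955), and the cardiac and pharyngeal gene Nkx2-6 at 0.768 and 1.10 against 1.36 and 1.42 in H3WT (-0.48 ± 0.27, limma adjusted p = 0.247).

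**Figure D4:**
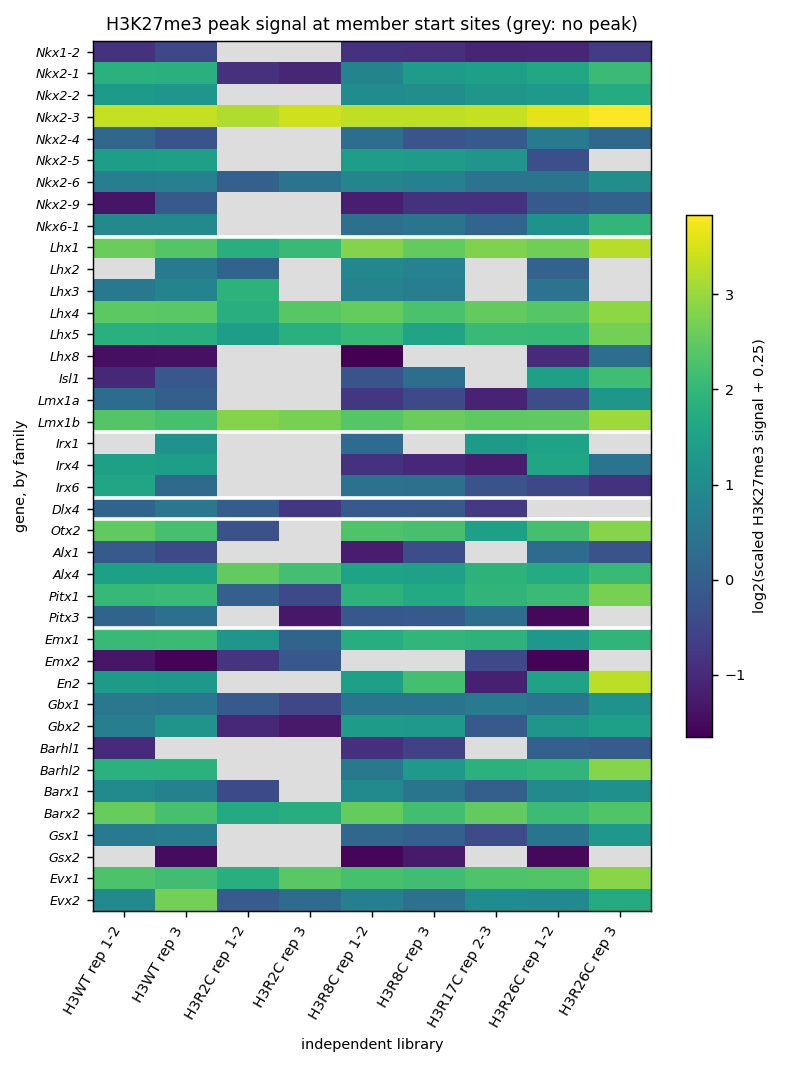
Start-site H3K27me3 signal, as log2(scaled signal + 0.25), of the 40 genes marked in at least 1 of 9 independent libraries, grouped by family with white lines between families. Grey cells had no peak. The 2 H3R2C columns hold the most grey cells (15 genes marked in both H3WT libraries are grey in both), and rows such as Nkx2-3, Lhx4 and Evx1 are filled throughout.

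Of the 8 LIM genes marked in both H3WT libraries, 4 kept the mark in both H3R2C libraries and 3 lost it. Lhx1 had 3.18 and 3.86 in H3R2C against 5.69 and 4.94 in H3WT, 6.77 and 5.50 in H3R8C, 6.59 in H3R17C, and 6.04 and 9.20 in H3R26C. Both H3R2C values were the lowest of all, but the change of -0.56 ± 0.28 did not pass (limma adjusted p = 0.191). Lhx4 had 3.22 and 5.02 in H3R2C, 5.56 and 4.56 in H3R8C, 5.51 in H3R17C, and 5.0 and 7.17 in H3R26C, against the 5.26 and 5.11 in H3WT. Lhx5, of the forebrain, had 2.38 and 3.31 in H3R2C against 3.29 and 3.19 in H3WT. Lmx1b, which sets the dorsal side of the limb, lay above H3WT in both H3R2C libraries, at 6.79 and 6.29 against 4.88 and 4.47, without passing the test (0.46 ± 0.25, limma adjusted p = 0.233).

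Isl1, a factor of motor neurons and of cardiac progenitors, passed the test in opposite directions in H3R2C and H3R26C. Its signal was 0.239 and 0.647 in H3WT, none in H3R2C, 0.603 and 1.00 in H3R8C, none in H3R17C, and 2.52 and 4.22 in H3R26C. The log2 change was -1.41 ± 0.41 in H3R2C (limma adjusted p = 0.0467) and 2.41 ± 0.41 in H3R26C (limma adjusted p = 0.0199). Its body was covered over 38.1% and 72.2% in H3WT, 0% in H3R2C and 100% in both H3R26C libraries. Peaks within 1 kb of the start were 4.35 and 13.6 kb long in H3WT and 23.7 and 19.5 kb in H3R26C, so the H3R26C rise came with longer peaks. The 4.35 kb peak ended 0.539 kb short of the start.

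Lmx1a, of the roof plate and of dopaminergic neurons, had 0.970 and 0.750 in H3WT, none in H3R2C, 0.338 and 0.486 in H3R8C, 0.217 in H3R17C, and 0.532 and 2.12 in H3R26C (H3R2C -2.14 ± 0.52, limma adjusted p = 0.0264). Lhx8, of cholinergic forebrain neurons, lay just above the listing threshold in H3WT, at 0.124 and 0.125, and was lost by calls in H3R2C without passing the test (limma adjusted p = 0.339). These H3WT levels were under the weakest listed peak of H3R2C replicate 3, at 0.135, so an unchanged level might not have been listed there. Lhx8 had 0.0681 and none in H3R8C, none in H3R17C, and 0.261 and 1.01 in H3R26C. Lhx2 and Lhx3 were marked in 1 H3R2C library each, Lhx3 at 3.44 in replicates 1 and 2 and none in replicate 3, and with SE of 1.15 and 1.33 on the log2 scale neither passed.

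The Irx genes lie in 2 clusters of 3, Irx1, Irx2 and Irx4 on chromosome 13 and Irx3, Irx5 and Irx6 on chromosome 8. Irx4 and Irx6 were marked in both H3WT libraries. Irx4, of the heart ventricles, had 2.50 and 2.39 in H3WT, none in H3R2C, 0.303 and 0.236 in H3R8C, 0.174 in H3R17C, and 2.72 and 1.13 in H3R26C. It was the 1 gene of the 57 that passed in H3R8C (-2.37 ± 0.37, limma adjusted p = 0.0247), and in H3R2C it changed by -3.43 ± 0.37 (limma adjusted p = 0.00182). Its body stayed 70.2% and 69.9% covered in H3R8C, against 100% in H3WT and 0% in H3R2C. Irx6 had 2.73 and 0.931 in H3WT, none at its start in H3R2C, 1.09 and 1.04 in H3R8C, 0.586 in H3R17C, and 0.472 and 0.305 in H3R26C (H3R2C -2.91 ± 0.45, limma adjusted p = 0.0051; H3R26C -1.57 ± 0.45, limma adjusted p = 0.0831). Of the 2.73 at Irx6, 2.25 came from a peak that ended upstream of the start, and the peak over the start held 0.482. Its body stayed 40.5% and 26.2% covered in H3R2C, against 100% in H3WT. Irx1 was touched at its start by peaks of 4 libraries, 1 each of H3WT, H3R8C, H3R17C and H3R26C, but its body was bare in all 9. Irx2, Irx3 and Irx5 were never marked.

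Among the Dlx and Msx genes only Dlx4, a distal-less homologue, was marked, and it was the gene lost in H3R26C. Its signal was 0.829 and 1.19 in H3WT, 0.728 and 0.339 in H3R2C, 0.688 and 0.675 in H3R8C, 0.354 in H3R17C and none in H3R26C. The change was -2.32 ± 0.32 in H3R26C (SE, limma adjusted p = 0.0128) and -0.72 ± 0.32 in H3R2C (limma adjusted p = 0.149). The body followed, with 100% covered in both H3WT libraries, 100% and 86.2% in H3R2C and 0% in both of H3R26C. Its neighbour Dlx3 was never marked.

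Of the paired class, Otx2 had 5.36 and 4.49 in H3WT and 0.567 and none in H3R2C, with 4.75 and 4.47 in H3R8C, 2.51 in H3R17C, and 4.40 and 6.88 in H3R26C (H3R2C -3.51 ± 0.55, limma adjusted p = 0.00553). Pitx1, which specifies the hindlimb, kept a reduced peak in H3R2C at 0.767 and 0.496 against 3.83 and 4.01 in H3WT, 3.47 and 2.99 in H3R8C, 3.6 in H3R17C, and 3.99 and 6.33 in H3R26C (H3R2C -2.26 ± 0.29, limma adjusted p = 0.00292). Alx1, of craniofacial mesenchyme, had 0.665 and 0.491 in H3WT, none in H3R2C, 0.175 and 0.534 in H3R8C, none in H3R17C, and 0.954 and 0.593 in H3R26C (H3R2C -1.72 ± 0.37, limma adjusted p = 0.0181).

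Pitx3, of the lens and of dopaminergic neurons, was low in both mutants, as Nkx2-5 was. It had 0.833 and 1.02 in H3WT, none and 0.154 in H3R2C, 0.655 and 0.687 in H3R8C, 1.01 in H3R17C, and 0.0940 and none in H3R26C. The changes were -1.89 ± 0.33 in H3R2C (limma adjusted p = 0.0079) and -2.0 ± 0.33 in H3R26C (limma adjusted p = 0.0185). What remained within 1 kb of the start was a peak of 1.70 kb in H3R2C replicate 3 (chr19:46148551-46150250) and one of 2.30 kb in H3R26C replicates 1 and 2 (chr19:46148251-46150550), both lying mostly upstream of the start, against 9.05 and 11.7 kb in H3WT.

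Alx4, a limb and skull gene, was 1 of the 2 genes that were higher in H3R2C, at 5.49 and 4.31 against 2.51 and 2.52 in H3WT, 2.62 and 2.55 in H3R8C, 3.47 in H3R17C, and 3.03 and 3.85 in H3R26C. Both H3R2C values were the highest of the 9, and the change was 0.89 ± 0.22 (limma adjusted p = 0.0287). Peaks over its start were 44.1 and 19.0 kb long in H3R2C and 21.8 and 21.9 kb in H3WT. With the signal left unscaled or scaled by the sum of each list the rise did not pass, and its highest adjusted p over the alternatives was 0.793.

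Barhl2, a retinal and neural gene, had 3.36 and 3.33 in H3WT, none at its start in H3R2C, 1.22 and 2.20 in H3R8C, 3.38 in H3R17C, and 3.63 and 6.88 in H3R26C (H3R2C -3.85 ± 0.37, limma adjusted p = 0.00119). Its body was nevertheless 73.1% and 21.3% covered in H3R2C, with the nearest peak 1.52 and 2.52 kb from the start. Gsx1, of the developing forebrain and spinal cord, had 1.24 and 1.31 in H3WT, none in H3R2C, 0.867 and 0.788 in H3R8C, 0.504 in H3R17C, and 1.15 and 2.17 in H3R26C (H3R2C -2.61 ± 0.30, limma adjusted p = 0.00212), and there the whole gene was bare, with no H3R2C peak within 32.2 kb. En2, of the midbrain and cerebellum, had 2.28 and 2.17 in H3WT, none in H3R2C, 2.48 and 4.31 in H3R8C, 0.195 in H3R17C, and 2.62 and 9.57 in H3R26C (H3R2C -3.31 ± 0.58, limma adjusted p = 0.00825).

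Gbx2, which places the midbrain-hindbrain boundary, fell from 1.37 and 2.03 in H3WT to 0.235 and 0.162 in H3R2C, with 2.30 and 2.22 in H3R8C, 0.666 in H3R17C, and 2.14 and 2.47 in H3R26C (H3R2C -2.11 ± 0.24, limma adjusted p = 0.00212). Barx1, of stomach and tooth mesenchyme, had 1.70 and 1.45 in H3WT and 0.501 and none in H3R2C (-2.07 ± 0.51, limma adjusted p = 0.0283). Emx2, of cortex and urogenital tract, was near the listing threshold in H3WT, at 0.151 and 0.0803, without a peak in H3R8C, and at 0.326 and 0.650 in H3R2C, 0.488 in H3R17C, and 0.0820 and none in H3R26C (H3R2C 0.98 ± 0.27, limma adjusted p = 0.0389). Evx1, of spinal interneurons, had 3.25 and 5.15 in H3R2C against 4.65 and 4.17 in H3WT, and its body was wholly covered in all 9 libraries. Evx2 shared its start-site peak with Hoxd13 in both H3WT libraries, so its level, 1.68 and 6.17, also reflects the edge of the Hoxd cluster.

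Calls for single genes depended on 1 library to unequal degrees. Of the 19 genes lower in H3R2C, 10 stayed under an adjusted p of 0.05 in every other fit that could be made for them, each omission of 1 of the 8 libraries included (Nkx2-2, Nkx2-1, Barhl2, Nkx6-1, Irx4, Gsx1, Gbx2, Pitx1, Nkx2-5 and Irx6). Of these 10, only Nkx2-1, Gbx2 and Pitx1 kept a peak in both H3R2C libraries. The others had none in either, so their SE and p carry the limit given above. At a stricter threshold of 0.001 only Nkx2-2 passed. An omission from a genotype leaves it 1 library, which is then assumed to vary like the other genotypes. Nkx2-4 and Nkx1-2 also passed under all 8 omissions. Otx2 and Pitx3 lost the call in 1 omission each, that of H3WT replicates 1 and 2 (limma adjusted p = 0.0518) and that of H3WT replicate 3 (limma adjusted p = 0.0535). En2 and Alx1 lost it in 4, those of either H3WT or either H3R2C library, with the highest limma adjusted p at 0.0653 and 0.104. Lmx1a lost it in 6, all but the H3R26C omissions, and Barx1 in 6, all but the H3R2C omissions, each reaching a limma adjusted p of 0.14 without H3WT replicates 1 and 2. Isl1 lost it in all 8, reaching 0.203 without H3WT replicate 3. Of the higher genes, Alx4 lost the call in 3 omissions (either H3WT library or H3R8C replicates 1 and 2) and Emx2 in 7 (all but that of H3R2C replicates 1 and 2), reaching limma adjusted p of 0.0894 and 0.183.

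Without H3R2C replicate 3, which stood apart, 15 genes were lower and 1 higher in H3R2C, and 16 were lost by calls. Without H3R26C replicate 3, 2 were lower and 0 higher in H3R26C.

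In H3R26C the call of Dlx4 was lost in 1 omission, that of H3WT replicate 3 (limma adjusted p = 0.0585). That of Pitx3 was lost in 5 (either H3WT library, either H3R8C library or H3R26C replicate 3), that of Isl1 in 6 (all but those of H3WT replicate 3 and H3R26C replicates 1 and 2) and that of Nkx2-5 in 6 (all but the H3R26C omissions), reaching limma adjusted p of 0.0876, 0.0853 and 0.145. The call of Irx4 in H3R8C was lost in 6 (all but the H3R26C omissions), reaching 0.131. When only the 907 genes marked in all 8 libraries were fitted, 15 of the 57 remained and 3 (Gbx2, Nkx2-1 and Pitx1) were lower in H3R2C, against 7.61% of those 907.

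Set directly against H3R26C, H3R2C was lower at 21 of the 39 genes and higher at 2, where 26.6% and 17% of all fitted genes were lower and higher, and the median log2 difference was -1.25 against -0.18 over all. Dlx4 and Emx2 were the 2 that were higher in H3R2C. With H3R2C and H3R26C together against H3WT and H3R8C, 14 genes were lower and 1 higher (Alx4), against 14.3% and 9.89%. The 14 fell to between 6 and 8 on leaving out either H3WT library, H3R2C replicate 3 or either H3R8C library. That contrast averages genotypes with unlike values. Nkx2-2, the gene with the lowest adjusted p in it (-1.40 ± 0.15, limma adjusted p = 0.00415), had no start-site peak in H3R2C and more signal than H3WT in 1 H3R26C library, whereas Nkx2-5 (limma adjusted p = 0.00471) and Pitx3 (-1.77 ± 0.23, limma adjusted p = 0.00548) were low in each.

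Coverage of the gene bodies does not depend on the scaling. Averaged over the 57 genes, 49.2 ± 2.39% of the gene body lay under H3K27me3 peaks in H3WT (SD, n = 2 libraries), 50.4 ± 2.21% in H3R8C, 46.2 ± 4.09% in H3R26C, 41.1% in the H3R17C library and 24.8 ± 4.45% in H3R2C. Over all protein-coding genes the same mean was 6.06 ± 0.211% in H3WT, 6.21 ± 0.499% in H3R8C, 5.33 ± 1.81% in H3R26C, 4.94% in H3R17C and 5.90 ± 1.65% in H3R2C. The H3R2C libraries, at 27.9% and 21.6%, lay below all others, of which the lowest was at 41.1%. Of the 16 genes wholly covered in H3WT, 13 stayed so in both H3R8C libraries, 11 in both H3R26C libraries and 2 (Nkx2-3 and Evx1) in both H3R2C libraries. Of the 269 protein-coding genes wholly covered in H3WT, 85.5%, 54.3% and 39.0% stayed so, in the same order. Under 50% covered in both H3R2C libraries were 7 of the 16, against 21.6% of the 269, and Irx4 and Gsx1 were bare.

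**Figure D5:**
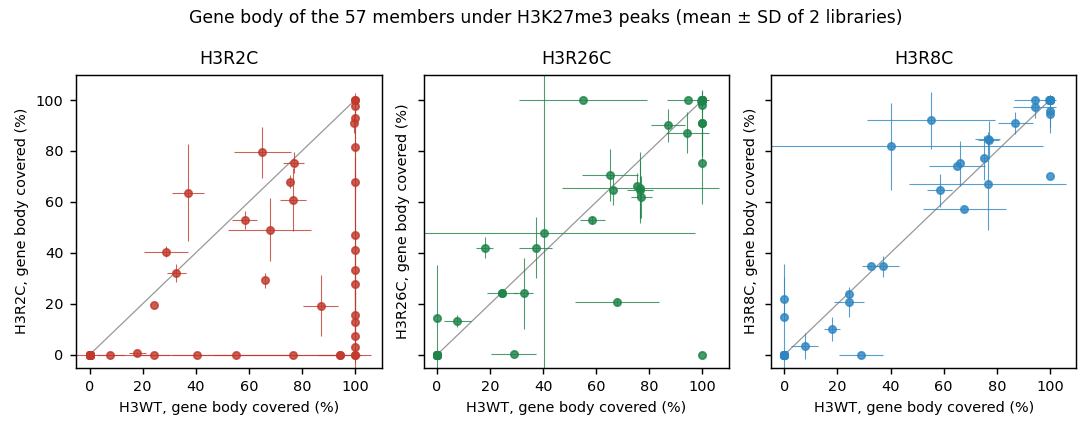
Percentage of each of the 57 gene bodies under H3K27me3 peaks, mean and SD of 2 libraries, in H3R2C, H3R26C and H3R8C (vertical) against H3WT (horizontal), with the line of equality in grey. In H3R2C many genes at 100% in H3WT fall along the right edge down to 0%, in H3R26C Dlx4 is the gene at 100% in H3WT and 0% in the mutant, and in H3R8C no gene wholly covered in H3WT falls below 50%.

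Over a wider neighbourhood the genotypes were closer together. Within 50 kb of the start site, peaks covered on average 23.6 and 24.9 kb per gene in H3WT, 22.5 and 16.1 kb in H3R2C, 21.8 and 24.5 kb in H3R8C, 19.5 kb in H3R17C, and 25.8 and 19.9 kb in H3R26C. The H3R2C value of replicates 1 and 2 lay among those of the other genotypes, and that of replicate 3 below them. Over all protein-coding genes the same length averaged 7.86 and 5.10 kb in H3R2C and 6.02 and 6.22 kb in H3WT.

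In the H3R17C library 33 of the 57 genes were marked, and 4 of the 36 genes marked in both H3WT libraries were not (Lhx3, Lhx8, Isl1 and Alx1), against 16.1% of all genes marked in both H3WT libraries. Low values there included Irx4 and En2, at 0.174 and 0.195 against at least 2.17 in H3WT. With 1 usable library these values carry no replicate error and no test.

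No H3K27me3 peak of any of the 9 libraries touched the start of 17 genes, Nkx3-2, Nkx6-2, Nkx6-3, Lhx6, Lhx9, Isl2, Irx2, Irx3, Irx5, Dlx1, Dlx2, Dlx3, Dlx6, Otx1, En1, Gsc and Msx1. They include genes of limb and skeletal development (Nkx3-2, Msx1), of neurons and the brain (Lhx6, Isl2, Otx1, En1, Nkx6-2) and of the early embryo (Gsc). Of the 17, 10 had an H3WT peak within 50 kb, the closest at 4.99 kb from Irx3 and 5.92 kb from Msx1, while the nearest peak to Dlx1 lay 449 kb away. A missing peak says nothing of whether the gene is transcribed.

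The HA peaks, which map the tagged histone, touched few of these genes. Per library they touched the start of 0% to 10.5% of the 57 genes and of 7.89% to 21.3% of all protein-coding genes. In every library of a genotype an HA peak touched the start of 3 genes in H3WT (Nkx2-5, Dlx4 and Pitx3), against 9.05% of all genes, 1 in H3R2C (Nkx2-5) against 7.47%, 3 in H3R8C (Dlx3, Dlx4 and Pitx3) against 4.82%, 0 in H3R17C against 3.52% and 0 in H3R26C against 6.38%. In all, 15 of the 57 had an HA peak at the start in at least 1 of 10 HA libraries, 10 of them genes with H3K27me3 in some library and 5 never marked. Among the 15 genes that lost their H3K27me3 peak in H3R2C, 2 had an HA peak in any H3R2C library, as did 2 of the 17 that kept it. The share of all genes with an HA peak in any library is not given here, so these counts are a description only. HA lists differed in length and peak width between libraries, and mean HA coverage of the gene bodies was 1.89% to 7.99%, so tagged histone at most of these genes was not detectable in the lists.

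For comparison, a list of 59 further homeobox genes outside the Hox, Pax and sine oculis families was counted, of which 57 were found. In both H3WT libraries 33 of them were marked and in both H3R2C libraries 19, and 12 of the 33 (36.4%) were lost in H3R2C. Of the 37 that were fitted, 22 were lower and 1 higher in H3R2C against H3WT, with a median log2 change of -1.35, and 0 lower and 1 higher in H3R26C. Of the 5 neural genes 3 were lower in H3R2C and 0 in H3R26C. No difference between these lists and the 57 genes was tested.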

How the data were processed

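C3H 10T1/2 cells of 5 genotypes were profiled by CUT&RUN. Of 60 samples, the 30 with anti-H3K27me3 or anti-HA lists were used, and 30 (IgG and H3K4me3) were not analysed here. The authors aligned reads to mm10 with Rsubread and deposited SEACR (1.3, stringent, threshold 0.01) peak lists, in which the signal of a peak is coverage summed over its bases, as whole numbers that are not scaled for depth. The lists do not hold library depth, so no counting interval is given, and only blocks above the caller's threshold appear. The study reports total reads for each labelled replicate, which were not used here. Lists with identical values in a group were counted once. The H3R17C replicate 1 list, whose name gives another mark, was left out.

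Start sites were those of the principal GENCODE vM21 transcripts. Summed signal was scaled as described above and log2(scaled signal + 0.25) was fitted with limma 3.58.1 (R 4.3.3, eBayes with trend, Benjamini-Hochberg) in 1 fit of 8 libraries, which was first tested on simulated data. Counting used Python 3.11.15 with pandas 2.3.3 and numpy 2.4.6, and figures matplotlib 3.10.9. The study's own test on read counts could not be run on peak lists. Genes were named if past an adjusted p of 0.05 (10 lowest per comparison), lost by calls, among the 5 highest in H3WT by signal or body coverage (16 tied at full coverage), or never marked. Other genes with values in the text were chosen after their values were seen. The 57 genes, the marker lists and the further homeobox list were chosen with earlier results of these data known. Alternatives varied the pseudocount, scaling, signal column, window, filter, peak threshold, transcript start, replicate block and libraries included. The autosomal share was added after seeing the data. Promoter sequences came from RefSeq, GRCm38.p6.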

Additional observations from a re-analysis of the deposited data

Results flagged for a closer look

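The following genes were singled out because their start-site signal differed between H3R2C and H3R26C in the direct limma contrast of the 2 mutants (adjusted p under 0.05, 2 libraries each), given as log2 differences, H3R2C minus H3R26C. Lower in H3R2C were the NK genes Nkx2-2 (-3.51), Nkx6-1 (-3.57), Nkx2-1 (-2.83), Nkx2-4 (-2.41), Nkx2-9 (-1.97) and Nkx1-2 (-1.12). So were the LIM genes Isl1 (-3.82), Lmx1a (-2.44), Lhx8 (-1.68) and Lhx1 (-1.04), with Irx4 (-3.02) and the paired-class genes Otx2 (-3.67), Pitx1 (-2.60) and Alx1 (-2.01). Of the other ANTP genes En2 (-4.41), Barhl2 (-4.40), Gsx1 (-2.88), Gbx2 (-2.51), Barx1 (-2.22), Barhl1 (-1.98) and Gbx1 (-1.11) were lower. Higher in H3R2C were Dlx4 (1.60) and Emx2 (1.32). Of the 21 lower genes 11 stayed under an adjusted p of 0.05 in every other fit that could be made for them, and of the 2 higher genes 0 did. At a threshold of 0.001, 5 of the 21 passed. The 10 lower genes that lost the call in at least 1 fit were Otx2, Alx1, Barhl1, Lmx1a, Nkx2-9, Nkx1-2, Barx1, Lhx8, Gbx1 and Lhx1.

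Gbx1 and Lhx1, at limma adjusted p of 0.0231 and 0.027, were marked in all 9 libraries. The call of Gbx1 was lost in 5 of the 8 omissions of 1 library (highest limma adjusted p = 0.131) and that of Lhx1 in 7 (highest limma adjusted p = 0.108), and both were lost with the signal as deposited. Barhl1 was marked in 1 of 2 H3WT libraries and in both H3R26C libraries.

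The list labelled H3R17C replicate 1, left out of every comparison because its name gives another mark, touched the start of 7 of the 57 genes. Of these, 6 (Irx2, Irx3, Irx5, Dlx2, Otx1 and Msx1) had no start-site peak in either H3WT library with anti-H3K27me3. The list touched 39.4% of all protein-coding genes, 9 of 12 mesenchymal markers, 6 of 6 housekeeping genes and 0 of 5 neural genes.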

How the results depend on the processing

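No direction reversed. Of the values under alternatives for single genes 961 kept their side of the threshold and 171 lost it. Of those for counts and means 283 stayed within 1.5 times or 1 SD of the value reported and 125 moved; the cause was not tested, except that fewer genes enter some fits. The fit without a filter on low values could not be made. The setting with all 3 labelled replicates enters the duplicate list of each group as well, so it counts duplicates as replicates and its p-values are too small.

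Genes lower in H3R2C (19) were 3 when only genes marked in all libraries were fitted and 1 at an adjusted p under 0.001, and genes higher (2) were 1 with pseudocount 0.05 or maximum signal and 0 with deposited signal, summed-signal scaling, all-library genes or p under 0.001. In H3R26C the 3 lower were 1 with pseudocount 0.05 or maximum signal and 0 with deposited signal, all-library genes or p under 0.001, and the 1 higher was 2 with pseudocount 1 or maximum signal, 5 with all 3 labelled replicates and 0 with deposited signal, all-library genes or p under 0.001. In H3R8C the 1 lower was 0 with deposited or maximum signal, eBayes without trend, all-library genes or p under 0.001, and 3 with all 3 labelled replicates. For H3R2C against H3R26C the 21 lower were 5 with all-library genes and 5 with p under 0.001, and the 2 higher were 1 with deposited signal and 0 with the last 2 settings. For H3R2C and H3R26C together the 14 lower were 8 with pseudocount 1 or deposited signal, 2 with all-library genes and 0 with p under 0.001, and the 1 higher was 0 with deposited signal, summed-signal scaling, signal within 5 kb, all-library genes or p under 0.001, and 3 with all 3 replicates.

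With the replicate number as a block, lower and higher genes numbered 19 and 0 in H3R2C, 3 and 1 in H3R26C, 0 and 0 in H3R8C, 22 and 2 for H3R2C against H3R26C, and 14 and 0 for the pooled contrast. Deviations of same-numbered libraries correlated at -0.13 to 0.21 over 907 genes, 2 of the 6 above 0.1, so the numbers were not taken to pair the libraries.

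By calls, genes marked in H3R2C (17) were 31 within 5 kb and genes lost (15) were 8. Gained genes (0) became 1 in H3R2C with the upper 50% of peaks or all 3 replicates, 1 and 3 in H3R26C with the same settings, and 1, 1 and 3 in H3R8C within 0.25 kb, with at least 50% of the window covered and with all 3 replicates. Lost genes (1) became 2 in H3R26C with the upper 50% or equal numbers of peaks, and in H3R8C 0 within 0.25 kb, with 50% of the window or the upper 50% of peaks, and 2 with equal numbers. HA genes were 5 in H3WT with all 3 replicates. In H3R2C they were 0 within 0.25 kb, with 50% of the window, the upper 50%, equal numbers or the gene's 5′ end, 6 within 5 kb, 5 with any transcript start and 2 with all 3 replicates. In H3R8C they were 0 within 0.25 kb or with 50% of the window, 1 with the upper 50% or equal numbers and 6 with all 3 replicates. In H3R17C they were 5 within 5 kb and 1 with any transcript start, and in H3R26C 3, 2 and, with all 3 replicates, 3.

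Leaving out 1 library gave 13 to 19 lower and 0 to 2 higher in H3R2C, 1 to 4 and 0 to 5 in H3R26C, 0 to 1 lower in H3R8C, 14 to 20 and 1 to 3 for H3R2C against H3R26C, and 6 to 15 and 0 to 3 for the pooled contrast. Lost genes were 16 to 18 in H3R2C, 1 to 5 in H3R26C and 1 to 2 in H3R8C, and gained genes 0 to 1 in H3R26C and 0 to 2 in H3R8C. HA genes were 5 in H3WT, 2 to 6 in H3R2C, 4 to 6 in H3R8C, 0 to 2 in H3R17C and 1 to 3 in H3R26C.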
